A study of Mus musculus with 8 samples.

Results

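Imprinted growth genes are genes of fetal and postnatal growth control that are expressed mainly from the allele of a single parent. Of these, 10 were examined in the H3K56ac peak list of muscle stem cells (MuSCs), out of 32093 protein-coding and long noncoding RNA genes used as the background. They were chosen by name, as known imprinted genes. Igf2, Dlk1, Peg3, Mest, Plagl1 and Ndn are expressed from the paternal allele, and H19, Meg3, Grb10 and Igf2r from the maternal allele in most tissues. Each gene was taken as its GENCODE record on mm10 plus 20 kb on either side, a region called its window, and a peak belonged to it when the overlap was at least 1 bp. The windows held 122 of the 105600 peaks, or 0.1155%, and no peak fell in more than 1 window.

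H3K56ac, a mark of histone H3 acetylated at lysine 56, was mapped by ChIP-seq in MuSCs, the stem cells of skeletal muscle. They were isolated fresh from C57BL/6 mice by depletion of Sca1+, CD45+ and CD31+ cells and sorting for Integrin-a7 and CD34 or for a fluorescent reporter, and the gate used for these libraries is not stated. Control mice were labelled wild type, although the study elsewhere describes controls as floxed Sirt6 littermates without Cre, and in Sirt6mKO mice a Cre recombinase expressed from the Pax7 locus (Pax7-ICNCre) removed floxed exons of Sirt6 in the muscle lineage. Each genotype had 2 H3K56ac libraries and 2 libraries of input DNA, 8 in all. A single merged list of peaks was analysed, with 0 columns of values per sample, so that neither genotypes nor alleles were separated and every value below is a description without replicate error or test.

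In genomic imprinting, DNA methylation set in the germ line marks an imprinting control region on the allele of one parent, and that mark decides which nearby genes are transcribed from which chromosome. Many imprinted genes lie in pairs or clusters in which a paternally expressed growth factor faces a maternally expressed noncoding RNA, as Igf2 faces H19 and Dlk1 faces Meg3. Paternally expressed members of the network tend to promote growth and maternally expressed members tend to restrain it, and in skeletal muscle several of them are highly expressed in the embryo and are linked to the quiescence or regeneration of MuSCs.

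Of the sequences that recur in imprinting control regions, 3 short motifs were searched on both strands. They are TGCCGC, the core bound by ZFP57 when methylated, CGNGGNGGC, part of the site of the insulator protein CTCF, and GCCATNTT, the core of the YY1 site. The CTCF part was found at 3 places upstream of H19, where the control region of the Igf2 and H19 pair lies, and these are shown on the strand of H19, with the match in capitals and mm10 coordinates, because only the first of them lay in a peak.
H19 site chr7:142580299-142580331 (minus strand): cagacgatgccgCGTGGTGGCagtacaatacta
H19 site chr7:142580754-142580786 (minus strand): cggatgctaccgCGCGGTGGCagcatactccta
H19 site chr7:142582024-142582056 (minus strand): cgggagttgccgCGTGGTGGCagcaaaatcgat
The near ends of the matches lay 2168, 2623 and 3893 bp upstream of the 5′ end of H19. A match is a string of letters and not evidence of binding, and the fourth match in the window, 265 bp inside the gene, also lay in a peak.

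The 250 bases upstream of RefSeq starts are shown next for 1 start each of Igf2, Mest, Meg3 and Igf2r on the strand of the gene (GRCm38, the same build as mm10), since these 4 stretches differed in how much of them was covered by peaks. Capitals mark the TGCCGC motif, read here as its reverse complement.
Igf2 chr7:142657497-142657746 (minus strand): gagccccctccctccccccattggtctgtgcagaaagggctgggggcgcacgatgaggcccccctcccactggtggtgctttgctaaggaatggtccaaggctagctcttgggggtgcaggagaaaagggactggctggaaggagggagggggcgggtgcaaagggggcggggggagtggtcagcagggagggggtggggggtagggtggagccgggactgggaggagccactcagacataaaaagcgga
Mest chr6:30737800-30738049 (plus strand): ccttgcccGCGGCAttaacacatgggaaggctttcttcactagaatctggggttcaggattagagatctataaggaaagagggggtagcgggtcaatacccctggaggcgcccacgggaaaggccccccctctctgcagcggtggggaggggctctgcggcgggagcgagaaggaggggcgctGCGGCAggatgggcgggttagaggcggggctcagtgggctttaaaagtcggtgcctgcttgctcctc
Meg3 chr12:109540746-109540995 (plus strand): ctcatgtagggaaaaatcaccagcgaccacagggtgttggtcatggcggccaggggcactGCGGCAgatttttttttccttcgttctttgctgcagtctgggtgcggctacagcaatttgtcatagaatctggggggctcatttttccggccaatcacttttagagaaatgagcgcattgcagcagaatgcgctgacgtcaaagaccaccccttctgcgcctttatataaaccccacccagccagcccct
Igf2r chr17:12769707-12769956 (minus strand): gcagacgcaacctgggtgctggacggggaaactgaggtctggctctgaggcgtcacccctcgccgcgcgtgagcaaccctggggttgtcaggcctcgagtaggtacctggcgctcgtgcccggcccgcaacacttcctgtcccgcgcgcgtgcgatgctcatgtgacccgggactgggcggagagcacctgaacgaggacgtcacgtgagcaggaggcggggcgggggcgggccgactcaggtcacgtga
No base of the Igf2 stretch lay in a peak. Peaks covered 20 bases of the Mest stretch, 191 of the Meg3 stretch and all 250 of the Igf2r stretch. The TGCCGC motif occurred at 2 places in the Mest stretch and 1 in the Meg3 stretch, and in 8.68% of the 32851 promoters of the same length. The CTCF part and the YY1 core occurred in 8.01% and 3.91% of all promoters and in none of the 4 stretches shown. Other starts differed, since the 250 bases before the Mest start at 30733506 and the Meg3 start at 109545398 had 0 covered bases, and the former held 1 CTCF part.

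To ask where H3K56ac peaks lay at the imprinted growth genes, the share of each window covered by peaks was determined first. All 10 windows held a peak, as did 74.5% of the background windows. H19 was the most covered, with 16 peaks over 76.5% of its window, a share larger than that of 99.7% of the background genes. Igf2r followed with 22 peaks over 44.0%, and Grb10 with 23 peaks over 40.0%. H19 is a noncoding RNA and the host of miR-675, Igf2r encodes the receptor that removes IGF2 to lysosomes, and Grb10 encodes an adaptor that restrains insulin and IGF signaling. Peg3, a zinc finger gene of growth and cell survival, had 11 peaks over 34.8% of its window. Plagl1, a zinc finger transcription factor that acts on other imprinted genes, had 22 peaks over 27.5%, and Dlk1, a transmembrane relative of the Notch ligands, had 12 over 24.8%. These 6 genes all lay above the upper quartile of the background, 19.9%.

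The other 4 windows lay below that quartile. Mest, which encodes a hydrolase-like protein, had 6 peaks over 12.3% of its window. Igf2, the fetal growth factor, had 3 peaks over 6.92%, Meg3, a noncoding RNA, had 6 over 5.70%, and Ndn, a MAGE family growth suppressor, had 1 over 2.88%. The last 3 shares were under the background median of 8.33%.

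**Figure D1:**
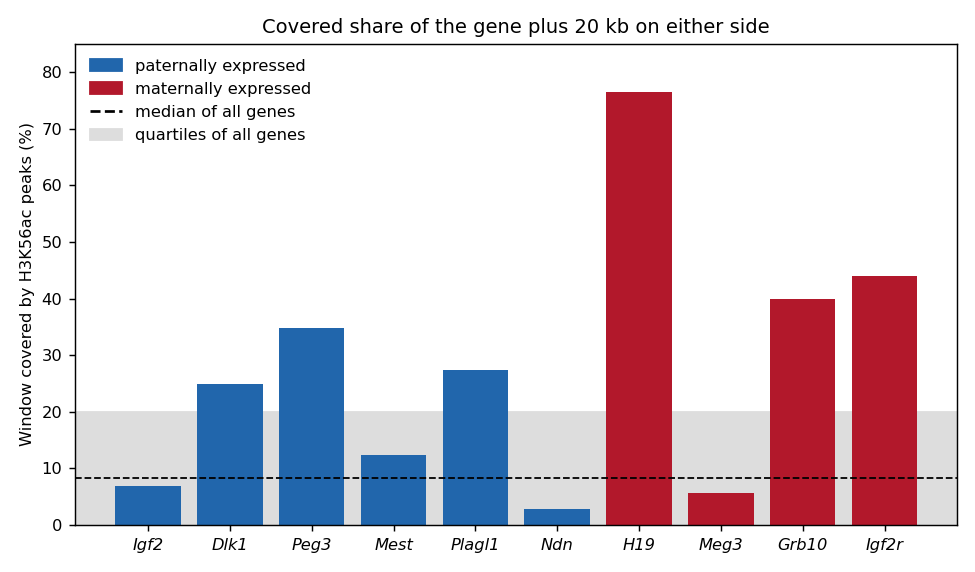
Share of each window covered by H3K56ac peaks in percent, with bars for the 10 genes colored by the expressed allele, the median of all background genes as a dashed line and their quartiles as a grey band. H19 reaches 76.5%, Igf2r and Grb10 lie at 44.0% and 40.0%, and Igf2, Meg3 and Ndn lie under the dashed line at 8.33%.

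Next, paternally and maternally expressed genes were compared. The median covered share was 18.6% for the 6 paternally expressed genes (range 2.88% to 34.8%) and 42.0% for the 4 maternally expressed genes (5.70% to 76.5%), a difference of -23.42 percentage points, paternal minus maternal. Within the gene records alone, the medians were 18.0% and 51.4%. The ranges overlapped, since Meg3 lay below 5 of the 6 paternally expressed genes. The number of peaks differed less, at 1.29 and 1.64 per 10 kb of window. Windows also held peaks at genes of the other class. The 17935-bp peak in the Igf2r window held 5 starts of the paternally expressed Airn. In the Peg3 window, the downstream peaks overlapped the maternally expressed Zim1. Genes are not replicates of a class and some share a domain, so no test was made.

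Other imprinted genes did not show the same order. Among 21 other paternally expressed genes the median covered share was 14.8% (0% to 48.1%), and among 20 other maternally expressed genes it was 7.40% (0% to 45.5%). Of the paternal list, 19 had a promoter peak, and of the maternal list 13, beside 60.0% of the background genes. The highest shares were those of Mcts2 (48.1%), Airn (42.7%) and Zrsr1 (37.8%) among the paternally expressed genes, and of Cd81 (45.5%), Calcr (31.5%) and Blcap (21.3%) among the maternally expressed genes. The lowest paternal shares were those of Rasgrf1 (0%), Snrpn (0.307%) and Rtl1 (0.868%). Of the 20 maternal windows, 5 (Ascl2, Mirg, Klf14, Slc22a2 and Kcnk9) held no peak, while 74.5% of the background windows held at least 1. The maternal counts were thus near the background shares. In all, 6 of these windows overlapped that of a member, such as Airn with Igf2r and Usp29 with Peg3. The paternal and maternal lists also share peaks with each other. For example, the paternally expressed Nnat lies within Blcap, and Zrsr1 lies within the maternally expressed Commd1. The lists are therefore not independent. The expressed allele was taken as listed for each gene and was not measured in MuSCs. Calcr is also among the MuSC marker genes checked below.

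**Figure D2:**
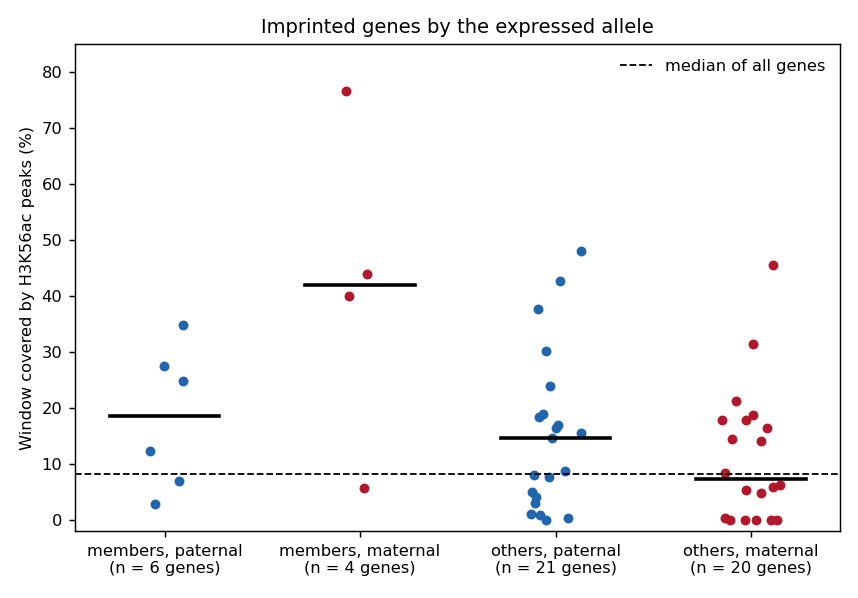
Share of each window covered by peaks in percent for the 10 genes and for 41 other imprinted genes, each point 1 gene, with a bar at the median of each class and a dashed line at the background median. The maternal median is the higher of the pair among the 10 genes (42.0% against 18.6%) and the lower among the others (7.40% against 14.8%).

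Peaks in the 10 windows were mostly of ordinary width. The median width was 1164 bp in the paternal class (55 peaks) and 1053 bp in the maternal class (67 peaks), compared with 974 bp over the whole list. Peaks of at least 5 kb were 11 of the 122, or 9.02%, compared with 6.00% of all peaks. Of the 11, 10 lay in the windows of H19, Grb10 and Igf2r, but not all in the gene itself. The 20181-bp and 8049-bp peaks of the H19 window lay outside H19, and a 5295-bp peak lay upstream of Igf2r. The last was a 5714-bp peak upstream of Peg3, in the body of its neighbor Usp29. Thus 4 of the 10 windows held a peak of 5 kb or more, as did 24.2% of the background windows. Within the gene records alone, 2 genes had such a peak. Of the 112 gaps between neighboring peaks of the same window, 65.2% were under 1 kb and 36.6% under 100 bp. In the whole list the shares were 44.5% and 13.5%. Gaps that run out of a window were not counted, whereas the whole list includes long gaps between genes. The member gaps are therefore shorter in part by construction, and closer spacing than at other genes was not tested.

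**Figure D3:**
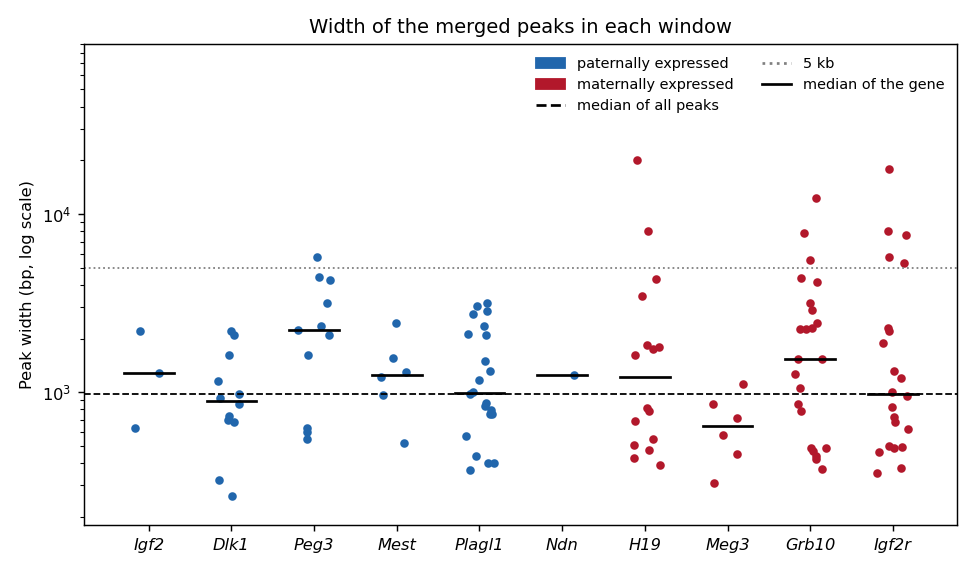
Width of each of the 122 peaks in bp on a log axis by gene, colored by the expressed allele, with a short bar at the median of each gene, a dashed line at the median of all peaks (974 bp) and a dotted line at 5 kb. The widest peaks are those in the windows of H19 (20181 bp), Igf2r (17935 bp) and Grb10 (12239 bp).

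Promoters were examined at every annotated transcription start site (TSS). A promoter peak, within 3 kb of a TSS, was present at 9 of the 10 genes, as at 60.0% of the background genes, the exception being Igf2. At least 1 TSS lay inside a peak at 8 of the 10 genes, compared with 51.9% of the background. Genes with many annotated starts reach such counts more easily, and the 10 genes had 74 distinct starts, 32 of them in peaks. Of these 32, 9 were in Plagl1 and 7 in Grb10. The share of starts in peaks was not computed over all background genes. Over the 300-base RefSeq promoter windows, 10 of 16 were touched by a peak, at 8 of the 9 genes with an entry, as were 49.2% of all such windows. H19 had no entry.

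The place of the peaks differed from gene to gene. Each peak was labelled by the first place that applied: promoter (within 3 kb of a TSS), exon, intron, then upstream or downstream. By these labels, 41 of the 122 peaks lay at promoters, 39 upstream, 19 downstream, 15 in introns and 8 over exons. The shares of these labels over the whole list were not computed, so the counts have no background beside them. Of the promoter peaks, 14 were in Grb10, which has annotated starts in its 3′ block as well. By median, peaks labelled exonic were the widest, with 2694.5 bp, and those labelled intronic the narrowest, with 497 bp. A wider peak touches an exon more easily, so this difference follows in part from the labels.

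**Figure D4:**
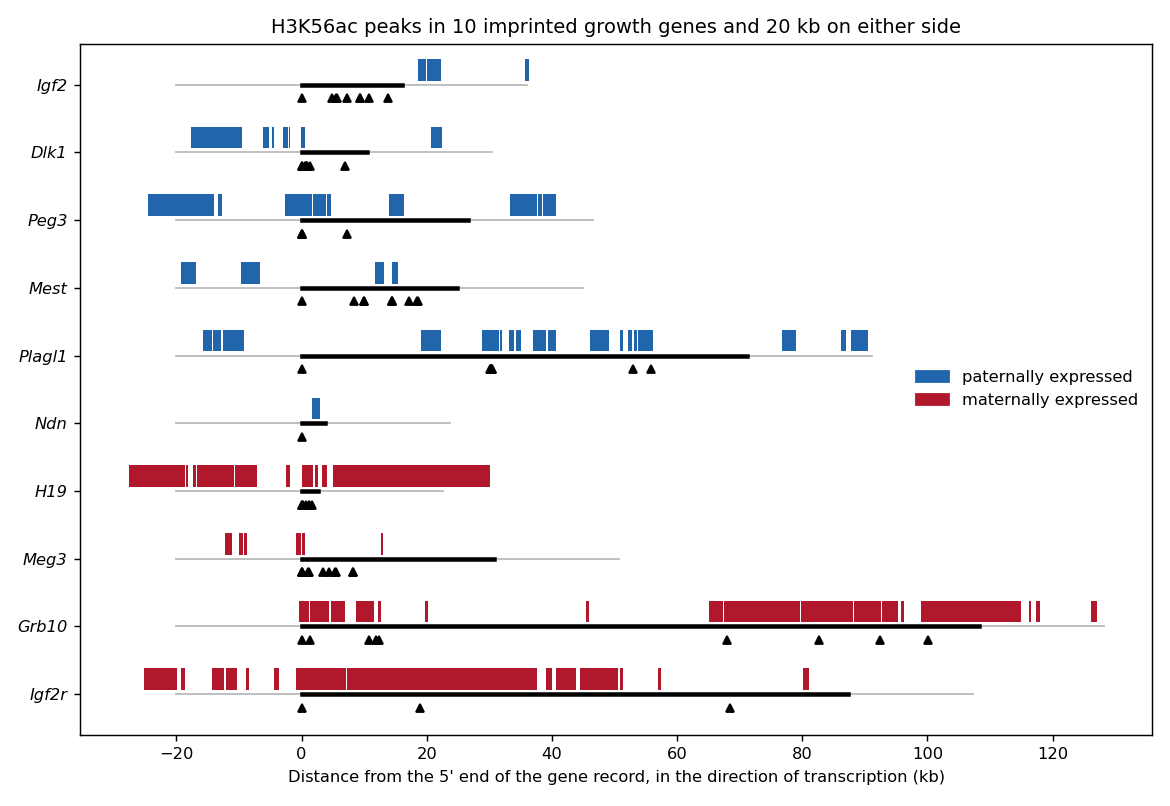
Peaks (colored blocks), gene records (black bars), windows (grey lines) and annotated TSSs (triangles) of the 10 genes, placed by distance in kb from the 5′ end of the gene in its direction of transcription. Igf2 has blocks only beyond its 3′ end, Grb10 has its widest blocks toward the 3′ end, and Igf2r has its widest blocks toward the 5′ end.

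Igf2 (chr7:142650766-142666816, minus strand) carried no peak over its gene record or its upstream flank. None of its 9 annotated starts lay in a peak, and the nearest was 4872 bp away. All 3 peaks of its window, 628, 2204 and 1287 bp wide, lay beyond its 3′ end, on the side of H19. The overlapping Gm49394 and the antisense transcript Igf2os had no promoter peak either, nor had the neighboring insulin gene Ins2 at any of its 7 starts in the window.

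H19 (chr7:142575529-142578143, minus strand) was covered over 83.3% of its gene record. A 1756-bp peak held 5 of its 7 starts and began 53 bp inside the gene. It also held the hairpin of miR-675, a microRNA processed from H19, whose mature arms are shown with the seed (bases 2 to 8) in capitals because it was the only one of 4 microRNA hairpins within these genes that lay in a peak.
mmu-miR-675-5p: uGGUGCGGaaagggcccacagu
mmu-miR-675-3p: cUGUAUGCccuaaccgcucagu
The hairpins of miR-483 in Igf2, miR-335 in Mest and miR-770 in Meg3 lay 6766, 2302 and 9749 bp from the nearest peak. The 8 mature arms had 8 distinct seeds.

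The widest peak of all 10 windows lay downstream of H19. It was 20181 bp wide (chr7:142548015-142568195), reached from 9948 to 30128 bp past the 5′ end of H19 and covered most of Nctc1, a noncoding transcript, whose own start it held and whose record was covered over 92.7%. A second block lay upstream, with 8 peaks between 7052 and 27544 bp from the 5′ end of H19 and within or near the noncoding transcript Gm33148, of which the widest was 8049 bp. Between the gene and that block a single 548-bp peak (chr7:142580050-142580597) lay 1907 to 2454 bp upstream. It had a CpG observed to expected ratio of 0.712, a GC content of 51.6% and 3 TGCCGC matches, and it held the first of the CTCF matches shown for H19.

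Across the 72.6 kb between Igf2 and H19, 14 peaks covered 36.7% of the sequence. Split at the midpoint, the side nearer H19 was covered over 62.1% and the side nearer Igf2 over 11.3%. Across the 77.7 kb between Dlk1 and Meg3, 13 peaks covered 16.9%, with 24.6% on the side of Meg3 and 9.21% on the side of Dlk1. In both intervals the covered share was therefore larger on the side of the maternally expressed noncoding RNA. The whole windows of Dlk1 and Meg3 had the opposite order, at 24.8% and 5.70%. The widest peak between Dlk1 and Meg3 was 3926 bp and lay on the side of Meg3, at the start of the noncoding transcript Gm34081.

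**Figure D5:**
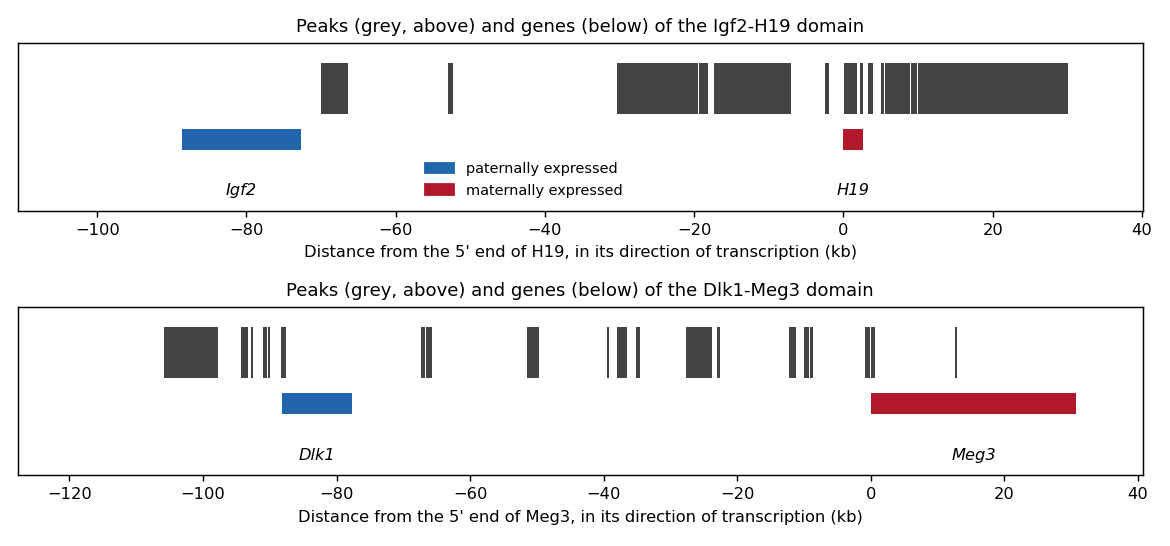
Peaks (grey blocks) and gene records (colored bars) of the Igf2-H19 and Dlk1-Meg3 domains, placed by distance in kb from the 5′ end of the noncoding gene in its direction of transcription, with peaks shown over the interval between the genes and over their windows. Long blocks lie on both sides of H19 and none over Igf2, while the Dlk1-Meg3 domain holds separate short blocks.

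Dlk1 (chr12:109452823-109463336, plus strand) had a 732-bp peak from 108 bp upstream to 623 bp downstream of its 5′ end, which held 2 of its 9 starts. It was CpG rich, with a ratio of 0.805, and no other peak lay in the gene. Most of its coverage came from upstream, where 51.9% of the 20 kb flank was covered. A run of 5 peaks, between 923 and 2219 bp wide and separated by gaps of at most 29 bp, lay from 17597 to 9530 bp upstream.

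Meg3 (chr12:109541001-109571726, plus strand) had an 859-bp peak ending 65 bp before its 5′ end and a 575-bp peak starting 6 bp after it. Of its 11 starts, 1 lay in a peak, although 2 more lay within 6 bp of one. Its 30.7 kb record was covered over 2.88%, by the 575-bp peak and a single intronic peak of 311 bp. Other genes of the cluster were sparsely covered, at 0.868% of the window for Rtl1, which is antisense to a maternal transcript, and 0.454% for the noncoding RNA gene Rian.

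The 3 remaining compact genes differed from each other. Peg3 (chr7:6703892-6730431, minus strand) had a 4274-bp peak over 3 of its 4 starts, from 2586 bp upstream to 1687 bp downstream, shared with the divergent start of Usp29. The next peak, 2225 bp wide and 76 bp away, held 8 YY1 matches, and 19 of the 32 YY1 matches in the window of Peg3 lay in peaks. The paternally expressed Usp29 had 6 of its 7 starts within the Peg3 window in peaks, and the maternally expressed Zim1 had 2 of 3. Mest (chr6:30723547-30748465, plus strand) had a CpG-rich peak of 968 bp (chr6:30738030-30738997) at its internal starts, but its most upstream start was 6611 bp from any peak. Ndn (chr7:62346569-62350262, plus strand) had a single 1256-bp peak, which held its RefSeq start, whereas its GENCODE start lay 1666 bp from the peak.

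Plagl1 (chr10:13060504-13131694, plus strand) had 14 peaks over its gene record, which was covered over 26.1%, beside 5 upstream and 3 downstream peaks that covered 31.1% and 28.8% of the flanks. The downstream peaks were 2134, 873 and 2757 bp wide. Its 2855-bp peak (chr10:13089264-13092118) held 8 of the 11 distinct starts, while the most upstream start was 9245 bp from a peak. A row of 6 peaks, 399 to 1164 bp wide, lay further in, between 50953 and 56226 bp from the 5′ end, and the last of them held 1 more start. Upstream of the gene, a group of 5 peaks lay over or beside the noncoding transcript Gm47691, which was covered over 75.0%.

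Grb10 (chr11:11930508-12038683, minus strand) had little coverage in the second of 4 equal parts and most toward its 3′ end. From its 5′ end, the parts were covered over 38.0%, 1.72%, 58.5% and 86.6%. The 3′ block contained the 12239-bp peak and peaks of 7868 and 5543 bp. At the 5′ end, peaks of 1540 and 3168 bp were CpG rich, with ratios of 0.900 and 0.773. A 421-bp peak over an internal start, 12247 to 12667 bp inside the gene, was also CpG rich, with a ratio of 1.24. In total, 7 of its 9 starts lay in peaks.

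Igf2r (chr17:12682406-12769664, minus strand) showed the opposite shape, with 98.5%, 89.5%, 34.0% and 4.59% of its 4 equal parts covered from the 5′ end. An 8062-bp peak lay over its first start. The 17935-bp peak (chr17:12732099-12750033) lay inside the gene and held 5 starts of Airn, the paternally expressed antisense RNA that silences Igf2r in cis. The covered shares of the windows of Slc22a2 and Slc22a3, maternally expressed in placenta, were 0% and 17.9%. Alleles were not separated, so which allele carried the peak at the Igf2r start or that at the Airn start cannot be told.

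The sequence under the peaks was described next. The motifs were chosen because they recur in imprinting control regions, so their rates here are not independent of the choice of genes. Peaks of the 10 windows had a median GC content of 46.9% and a median CpG ratio of 0.183, compared with 45.8% and 0.214 over the whole list. A ratio over 0.6 was found in 7 of the 122 (5.74%, compared with 4.29% of all peaks). All 7 lay within 3 kb of a start: 3 in Grb10 and 1 each in Dlk1, Mest, Plagl1 and H19. Together they made up 4.00% of the sequence under the peaks and held 24 of its 57 TGCCGC matches, in 5 of the 7 peaks. CpG-rich sequence holds more of any motif that contains CG, and this was not adjusted for.

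Per kb of peak, TGCCGC occurred 0.223 times in the 10 windows and 0.162 times in all peaks. The value was 0.309 in the paternal and 0.180 in the maternal class. The YY1 core occurred 0.293 and 0.186 times per kb in the windows and in all peaks, and the CTCF part 0.0742 and 0.110 times. By number, the 17935-bp Igf2r peak held 9 TGCCGC matches, the 968-bp Mest peak and the 4274-bp Peg3 peak 7 each, and the 2855-bp Plagl1 peak 6. In Mest, 8 of the 20 matches in the window lay in peaks that covered 12.3% of it, 7 of them in the CpG-rich 968-bp peak. In Igf2 none of 5 did, with peaks over 6.92% of the window, and 5 matches are too few to compare with that share.

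The labelled cell type was checked against markers. All 10 MuSC marker genes had a promoter peak, with a median covered share of 42.6%, and 3 of 8 markers of other cells (Pecam1, Cd68 and Pdgfra) did. The windows of Cdh5, Ptprc, Adgre1 and Tie1 held no peak. Because any library in the merge can contribute a peak, the part of other cells in the peaks of the imprinted genes was not tested.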

How the data were processed

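Peaks of H3K56ac were taken from the merged peak list of a study of freshly isolated Control and Sirt6mKO MuSCs. The authors trimmed reads with Trim Galore, aligned them to mm10 with bowtie keeping single alignments, removed duplicates with Picard, called peaks with MACS2, removed blacklisted regions and merged overlapping peaks with GenomicRanges. Merging widens and fuses peaks, and the single-alignment rule lowers the chance of a peak in repeats. The deposited score was 0 for each peak and was not used. The other columns give positions. Which libraries were merged is not stated. The list carries no counts, so the depth behind a peak cannot be read from it, and the groups of samples could not be compared.

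Genes were taken from GENCODE vM21 on GRCm38 and promoter and miRNA sequences from RefSeq (GRCm38), with 9 of the 10 genes matched. Windows added 20 kb, promoters spanned 3 kb on either side of a TSS, and wide peaks had at least 5 kb. The CpG ratio is the observed number of CpG over that given by the base composition. Values were computed with Python 3.11.15, numpy 2.4.6 and pandas 2.3.3, and the overlap functions were tested on simulated peaks. The members, gene lists and motifs were chosen with earlier results of these data known. The genes named were the 10 members, genes starting in their windows or domains, and imprinted genes in the same domain or with the 3 highest and 3 lowest shares per class. Nnat and Commd1 were named because they overlap genes with such shares. Not every gene under this rule is reported here. Single peaks were named after their values were seen. Alternatives were other flanks, the gene record alone, joined peaks, peaks of at least 500 bp, peak midpoints, other promoter limits, leaving out genes, and peaks per 10 kb.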

Additional observations from a re-analysis of the deposited data

How the results depend on the processing

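Of 31 alternative values for 5 results, 24 stayed within 1.5 times of the value reported, 6 moved further and 0 changed direction. Only the paternal minus maternal difference could change direction, as the other results are counts or a width. The remaining value, the paternal minus maternal difference in peaks per 10 kb of window (-0.35), is in another unit and can be compared in sign only. With the gene record only, 59 peaks remained in place of 122, and 2 genes had a peak of 5 kb or more in place of 4. With a flank of 50 kb, 201 peaks were counted and the paternal minus maternal difference in median covered share was -14.44 points in place of -23.42. Joining peaks less than 1 kb apart left 49 peaks with a median width of 2444 bp in place of 1138 bp. The difference ranged from -34.94 points with a flank of 10 kb to -14.44, and was -25.41 without Grb10. Genes with a promoter peak numbered 7 to 9. No paired analysis was possible because the list holds no values per sample. For the same reason genotypes, alleles and the strength of a peak could not be compared, and a merged peak may come from 1 library.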
